A study of Mus musculus with 37 samples.

Results

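At 3 days, left ventricles of mice resuscitated from cardiac arrest (Arrest 3 d, n = 4) were compared with those of mice that had received adrenaline without an arrest (Adr 3 d, n = 4). The 8 libraries were the samples labelled cardiac arrest or sham at 3 days, out of 37 in the series. All genes of the FPKM table that reached 0.5 FPKM in at least 4 of the 8 libraries were tested, which left 13105 of 56748. FPKM, the fragments of a gene relative to its length in kilobases and to the mapped fragments of the library, is a level that allows for gene length and sequencing depth, and differences below are differences of mean log2(FPKM + 1), Arrest minus Adr. Because 1 is added before the logarithm, the differences of low genes are understated.

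All animals were C57BL/6J mice of both sexes, aged 8 to 10 weeks, with no engineered allele. Adr and Arrest mice were anesthetized with isoflurane, intubated and ventilated, and both had a needle passed through the chest wall into the left ventricle under ultrasound. Arrest mice received 40 µL of 0.5 M potassium chloride, which stops the heart, and Adr mice 40 µL of saline. After 8 min both groups were given 500 µL of adrenaline at 15 µg/mL into the ventricle, and chest compressions followed in the Arrest group alone. The Adr group, named sham in the labels, thus shared the anesthesia, the needle and the adrenaline with the Arrest group, and the question put by the comparison is what arrest and resuscitation added by 3 days. The 5 Naïve libraries had anesthesia only. The chambers were rinsed with cold saline once blood had been drawn, and the apex, where the needle entered, was not used. The labels do not tie libraries to animals, so p-values measure the spread between these libraries. An unexplained number in the labels ran from 63 to 87 in Adr 3 d and from 90 to 112 in Arrest 3 d, and what it stands for cannot be told apart from the treatment.

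As background, immediate early genes such as Fos, Jun and Egr1 encode transcription factors that cells make within minutes of a stimulus and then switch off. Chaperones of the endoplasmic reticulum fold secreted and membrane proteins, and their genes are switched on together when unfolded protein builds up. After cardiac injury, macrophages and activated fibroblasts later make matricellular proteins such as osteopontin and periostin, while working muscle is marked by sarcomere and mitochondrial transcripts. Whole-tissue RNA mixes all of these cells with the blood left in the vessels.

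One library stood apart from the rest. Adr 3 d replicate 3 correlated with the other Adr libraries at 0.859 to 0.872 (Pearson, over the 13105 genes), whereas the other 3 correlated with each other at 0.958 to 0.969 and with the Arrest libraries at 0.930 to 0.970. Transcripts of the mitochondrial genome took 9.36% of its fragments (95% Wilson interval 9.34 to 9.37%, counting error only), against 24.5 to 28.6% in the other 7. Its FPKM had been scaled to 1.41 times the fragments counted over genes, against 0.904 to 1.08 times elsewhere. The study excluded 1 Adr sample at 3 days for poor quality without naming it in the labels, and it was not assumed to be this one. Results are therefore given with all 8 libraries and, for the lists and the main genes, again without Adr replicate 3. Fragments over genes numbered 13.9 M to 30.2 M per library (M, mega), the sexes read from Xist and Ddx3y gave 2 males and 2 females in each group, and the sarcomere list was high in every library (summed level 4682 FPKM in Adr replicate 3 and 10531 to 19259 in the other 7).

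**Figure D1:**
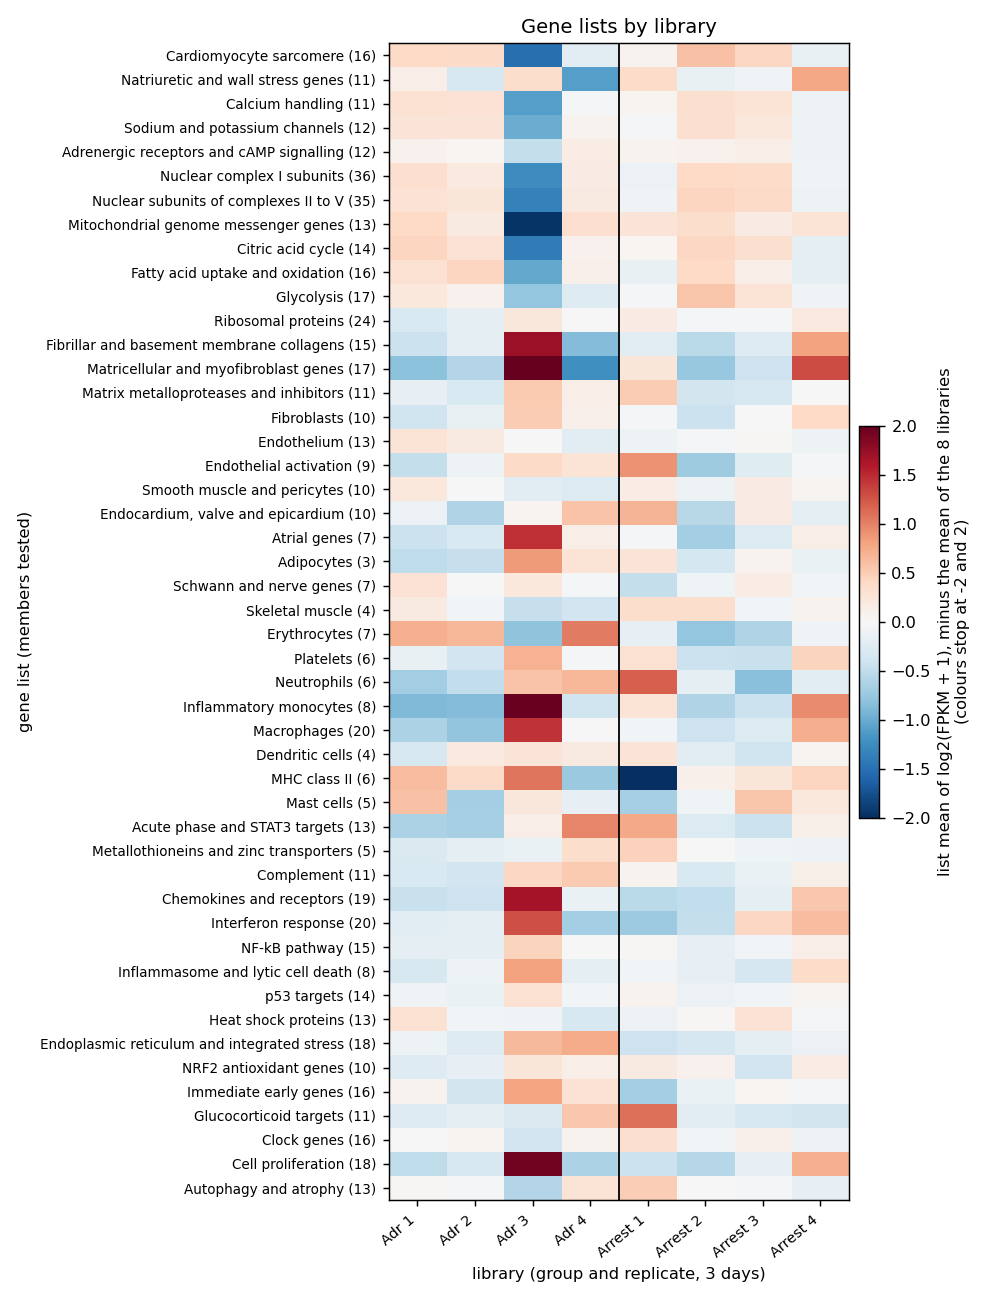
Mean log2(FPKM + 1) of each gene list in each of the 8 libraries, shown as the difference from the mean of the 8 (rows are lists with the number of members tested, columns are libraries, colours stop at -2 and 2). Adr replicate 3 has the lowest sarcomere and mitochondrial list means and the highest collagen, matricellular, monocyte and proliferation means, and the median difference of the collagen, monocyte, proliferation and complex I lists changes sign when it is left out.

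With all 8 libraries no gene passed an adjusted p of 0.05 in limma (0 of 13105, or 0%), and 299 had an unadjusted p of 0.05 or less, where 655 would be expected by chance under no difference. Without Adr replicate 3, 1 gene passed (0.00763%), the alpha-globin gene Hba-a2, and 441 had an unadjusted p of 0.05 or less. As a second description, every Arrest library lay above every Adr library in 100 genes (0.763%) and below in 133 (1.01%) with all 8, and in 323 (2.46%) and 314 (2.4%) without Adr replicate 3. The median difference over all genes was 0.0046 with all 8 libraries, and the median SE of a gene's difference was 0.233. The genes named below, except Hba-a2, therefore did not pass the adjusted test, and their values are given as a description of these libraries.

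Of the immediate early genes, 3 of 16 (Egr1, Fos and Jun) were lower in every Arrest than in every Adr library. Of all genes tested, 1.01% were so with all 8 libraries and 2.4% without Adr replicate 3. Egr1, a zinc finger transcription factor, differed most of the 3. Egr1 (ENSMUSG00000038418, chromosome 18) measured 15.9, 13.2, 38.9 and 20.4 FPKM in Adr replicates 1 to 4 and 4.29, 4.56, 6.02 and 4.68 FPKM in Arrest replicates 1 to 4. All Adr libraries were high, all Arrest libraries lay within the Naïve range of 2.63 to 11.3 FPKM, and the groups did not overlap. The difference was -1.86 ± 0.30 (SE, adjusted p = 0.84) with all 8 libraries and -1.56 ± 0.19 (adjusted p = 0.11) without Adr replicate 3. It was -1.81 in males and -1.91 in females, or -1.17 in females without Adr replicate 3, where Adr replicate 2 was the only Adr female left.

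Fos, a partner in the AP-1 transcription factor, measured 8.31, 7.61, 45.0 and 12.6 FPKM in Adr and 3.21, 4.47, 2.43 and 4.08 FPKM in Arrest. Jun, its usual partner, measured 32.4, 27.2, 37.5 and 33.7 FPKM in Adr and 14.4, 21.7, 19.96 and 15.8 FPKM in Arrest. The groups did not overlap for either gene, and the Naïve libraries spanned 2.28 to 7.62 FPKM for Fos and 13.8 to 21.6 FPKM for Jun. The differences without Adr replicate 3 were -1.20 ± 0.23 for Fos (adjusted p = 0.59) and -0.77 ± 0.18 for Jun (adjusted p = 1.00). Jun was singled out after its values were seen.

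The rest of the list was less clear. Of 16 Immediate early genes listed, all tested, 14 were lower in Arrest with all 8 libraries, 4 of them with an unadjusted p of 0.05 or less (Egr1, Fos, Jun and Ier2), and the median difference was -0.29. When Adr replicate 3 was left out, 13 were lower and the median was -0.10. The 3 genes above were the ones that did not overlap in either comparison. Leaving out Arrest replicate 1 as well turned the list to 9 higher and 7 lower, with a median of 0.08.

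Among other times the direction was the opposite at 1 day, in libraries that do not enter the 3-day comparison. Egr1 had a median of 47.4 FPKM (2.84 to 52.1) in Arrest 1 d and of 2.63 FPKM (2.13 to 52.7) in Adr 1 d, a difference of 1.94. The change of the difference from 1 to 3 days was -3.80 for Egr1, -3.89 for Fos and -1.65 for Jun, and no gene passed the adjusted test of that change (0%; 354 of 13105 at an unadjusted p of 0.05 or less, and 0 with 690 without Adr replicate 3). Egr1 differed by 0.50 at 0.5 days and by 0.07 at 7 days. At 1 day single libraries of both groups reached the level of the other group, so the spread within groups was wide.

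**Figure D2:**
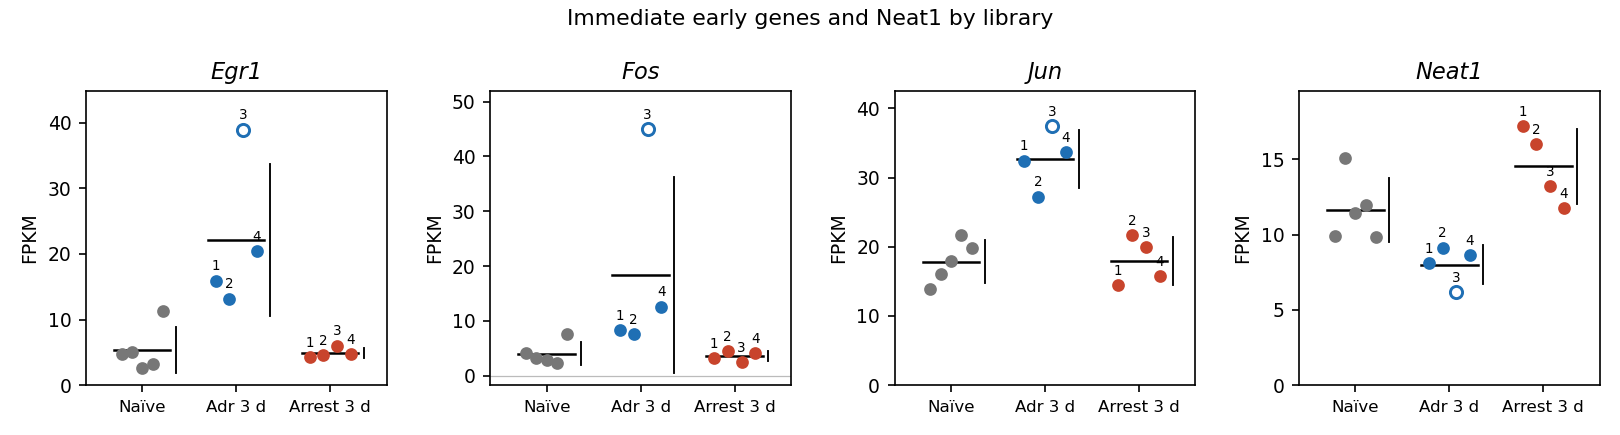
FPKM of Egr1, Fos, Jun and Neat1 in the 5 Naïve, 4 Adr 3 d and 4 Arrest 3 d libraries (points, with replicate numbers; the open circle is Adr replicate 3; horizontal line, mean; vertical line, ± SD). For all 4 genes the Adr and Arrest points do not overlap, with Egr1, Fos and Jun lower and Neat1 higher in Arrest.

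Among all genes, 1.01% were lower in Arrest without overlap with all 8 libraries and 2.4% without Adr replicate 3. Of the 18 tested members of the endoplasmic reticulum list, 3 chaperone genes were so in both comparisons, Hspa5, Hsp90b1 and Calr. Their promoters are shown because these genes share the endoplasmic reticulum stress element, a pair of boxes bound by NF-Y and ATF6 that couples chaperone genes to unfolded protein. The element was searched as CCAAT followed after any 9 bases by CCACG, on both strands of the 250 bases before each RefSeq gene start (GRCm38.p6), a search made after the expression values were known. It was present in 37 of 32851 promoters (0.113%) and in 5 of the 17 promoters found for the 18 tested members of the endoplasmic reticulum list (Calr, Creld2, Hsp90b1, Hspa5 and Pdia6). Creld2 and Pdia6 hold the element but were not among the genes without overlap, and the promoter of Pdia6 is not printed. Whether the element is tied to the lower values in Arrest was not tested. The 4 promoters below are written 5′ to 3′ on the strand of the gene, in the order Hspa5 (chr2:34771840-34772089, + strand), Hsp90b1 (chr10:86705445-86705694, - strand), Calr (chr8:84846932-84847181, - strand) and Creld2 (chr15:88819396-88819645, + strand), and capitals mark the element, which reads as its reverse complement where it lies on the other strand.
Hspa5: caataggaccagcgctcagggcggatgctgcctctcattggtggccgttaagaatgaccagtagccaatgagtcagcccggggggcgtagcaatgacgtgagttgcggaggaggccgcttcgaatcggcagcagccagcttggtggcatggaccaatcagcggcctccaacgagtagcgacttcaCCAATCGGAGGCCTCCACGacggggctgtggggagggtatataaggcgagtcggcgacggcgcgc
Hsp90b1: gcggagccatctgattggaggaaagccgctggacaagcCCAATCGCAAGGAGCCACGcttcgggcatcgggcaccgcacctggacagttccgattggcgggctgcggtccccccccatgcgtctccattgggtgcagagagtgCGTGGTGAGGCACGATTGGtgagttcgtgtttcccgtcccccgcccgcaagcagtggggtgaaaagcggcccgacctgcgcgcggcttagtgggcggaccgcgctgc
Calr: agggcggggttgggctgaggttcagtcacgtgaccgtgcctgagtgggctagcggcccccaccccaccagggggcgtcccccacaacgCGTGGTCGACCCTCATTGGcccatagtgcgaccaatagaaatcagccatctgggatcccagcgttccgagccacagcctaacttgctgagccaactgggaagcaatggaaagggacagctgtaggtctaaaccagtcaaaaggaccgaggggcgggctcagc
Creld2: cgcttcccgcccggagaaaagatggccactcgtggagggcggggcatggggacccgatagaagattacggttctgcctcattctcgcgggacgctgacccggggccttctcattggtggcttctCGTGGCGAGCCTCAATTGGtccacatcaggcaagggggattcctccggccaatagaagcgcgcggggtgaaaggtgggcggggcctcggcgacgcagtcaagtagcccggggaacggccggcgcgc

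The element sits once in Hspa5, Calr and Creld2 and 2 times in Hsp90b1. Hspa5, which encodes the chaperone BiP, measured 108, 93.7, 161 and 294 FPKM in Adr and 71.3, 76.2, 88.4 and 79.5 FPKM in Arrest. Adr replicate 4 was the highest by far, the lowest Adr library lay only a little above the highest Arrest library, and the Naïve libraries spanned 90.3 to 127 FPKM. The difference was -0.91 ± 0.33 (adjusted p = 1.00) and, without Adr replicate 3, -0.86 ± 0.35 (adjusted p = 1.00).

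Hsp90b1, which encodes the chaperone GRP94, measured 56.0, 52.8, 115 and 116 FPKM in Adr and 42.0, 36.5, 49.5 and 48.5 FPKM in Arrest. Calr, the calcium-binding chaperone calreticulin, measured 80.9, 89.0, 203 and 128 FPKM in Adr and 60.6, 64.1, 73.0 and 70.0 FPKM in Arrest. In both genes Adr replicates 3 and 4 were high while replicates 1 and 2 lay close to Arrest. Creld2, a secreted factor of the stressed reticulum, measured 11.7, 15.5, 27.1 and 42.5 FPKM in Adr and 3.75, 14.2, 4.33 and 11.6 FPKM in Arrest, and these groups overlapped.

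Of 18 tested members of the list Endoplasmic reticulum and integrated stress (19 listed), 16 were lower in Arrest with all 8 libraries, 6 of them at an unadjusted p of 0.05 or less, with a median of -0.33. Without Adr replicate 3 these numbers were 15, 4 and -0.33. Removing Adr replicate 4 also left 11 lower, 0 at an unadjusted p of 0.05 or less and a median of -0.09. The other 2 at an unadjusted p of 0.05 or less, both with groups that overlapped, were Manf, a secreted factor of the stressed reticulum with 15.6, 12.98, 31.0 and 59.6 FPKM in Adr and 8.08, 9.72, 14.2 and 13.03 FPKM in Arrest, and Pdia4, a disulfide isomerase with 13.2, 16.9, 56.8 and 44.3 FPKM in Adr and 10.6, 7.6, 14.95 and 18.5 FPKM in Arrest. Summed over the list, the level was 859 and 1019 FPKM in Adr replicates 3 and 4, 428 and 468 FPKM in Adr replicates 2 and 1, 340 to 441 FPKM in Arrest and 375 to 498 FPKM in Naïve. Members of the integrated stress branch differed little: Atf4 had differences of 0.02 and, without Adr replicate 3, -0.07, and Ddit3, the stress factor CHOP, of -0.02 and -0.15. Hspa5 differed by 0.47 at 0.5 days, 0.04 at 1 day and 0.17 at 7 days.

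**Figure D3:**
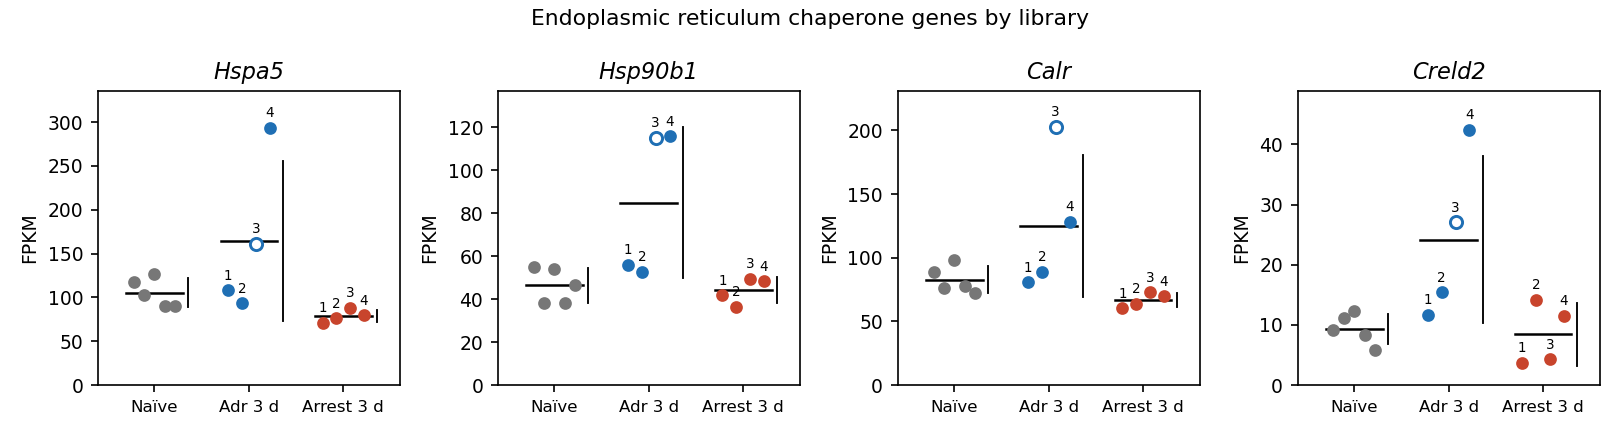
FPKM of Hspa5, Hsp90b1, Calr and Creld2 in the 5 Naïve, 4 Adr 3 d and 4 Arrest 3 d libraries (points, with replicate numbers; the open circle is Adr replicate 3; horizontal line, mean; vertical line, ± SD). The spread of the Adr group comes from replicates 3 and 4, and Arrest points lie in or under the Naïve range, apart from Arrest replicate 2 in Creld2.

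The globin genes were lower in every Arrest library than in each Adr library but replicate 3. Hba-a2 (ENSMUSG00000069917, chromosome 11), an adult alpha-globin gene, measured 135, 127, 35.2 and 114 FPKM in Adr and 51.1, 45.1, 45.7 and 50.9 FPKM in Arrest. The 4 Arrest libraries lay within a narrow range below the Naïve libraries (61.5 to 218 FPKM), and Adr replicate 3 lay lower still. Without that library Hba-a2 fell by 1.36 ± 0.13 on the log2 scale (adjusted p = 0.044). The difference was -1.35 in males and -1.38 in females, where Adr replicate 2 was the only Adr female left. In females it was -0.47 with Adr replicate 3 included. With all 8 libraries the difference was -0.91 ± 0.39 (adjusted p = 1.00). The call without Adr replicate 3 was lost when any further library was left out, with adjusted p from 0.081 to 0.35, while the difference stayed between -1.43 and -1.31. It was also lost with sex as a covariate (adjusted p = 0.21) and under other settings given at the end.

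Hba-a1, the other adult alpha-globin gene, measured 987, 1013, 256 and 1367 FPKM in Adr and 396, 304, 387 and 574 FPKM in Arrest. Hbb-bs, an adult beta-globin gene, measured 1921, 1827, 474 and 2437 FPKM in Adr and 888, 504, 704 and 1050 FPKM in Arrest. Adr replicates 1, 2 and 4 were above every Arrest library in both genes. The Naïve libraries spanned 532 to 1209 FPKM for Hba-a1 and 889 to 2325 FPKM for Hbb-bs, and Arrest replicate 4 lay within both ranges. The differences without Adr replicate 3 were -1.45 ± 0.23 for Hba-a1 (adjusted p = 0.41) and -1.43 ± 0.26 for Hbb-bs (adjusted p = 0.57). Globin genes are near copies of each other, so the split of fragments between Hba-a1 and Hba-a2, or Hbb-bs and Hbb-bt, is uncertain.

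Hbb-bt, the other adult beta-globin gene, measured 164, 143, 37.1 and 246 FPKM in Adr and 87.6, 41.3, 45.4 and 90.4 FPKM in Arrest (-1.52 ± 0.32 without Adr replicate 3, adjusted p = 0.92). Its Naïve range was 87.4 to 183 FPKM, and Arrest replicates 1 and 4 lay just within it. Alas2, the enzyme that starts heme synthesis in red cells, measured 14.6, 12.1, 4.28 and 21.8 FPKM in Adr and 12.2, 3.77, 3.21 and 10.1 FPKM in Arrest, and its groups overlapped. All 7 tested members of the Erythrocytes list (10 listed) were lower in Arrest in both comparisons, with medians of -0.91 and, without Adr replicate 3, -1.36, and 5 of the 7 did not overlap in the latter against 2.4% of all genes. The list was lower with each library left out in turn, with medians from -1.45 to -0.64 over both comparisons. The 4 globin genes took 0.235, 0.237 and 0.328% of fragments in Adr replicates 2, 1 and 4, 0.0873% in Adr replicate 3 and 0.0627 to 0.148% in Arrest. In an exact permutation test of that share p was 0.11 with all 8 libraries and 0.029, the smallest 4 against 3 libraries can give, without Adr replicate 3 (two-sided, 0.14 after adjustment over 5 library measures). How well each heart was rinsed is not in the labels, so the part of rinsing was not tested. In whole tissue, fewer cells of a type and less RNA per cell cannot be told apart.

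**Figure D4:**
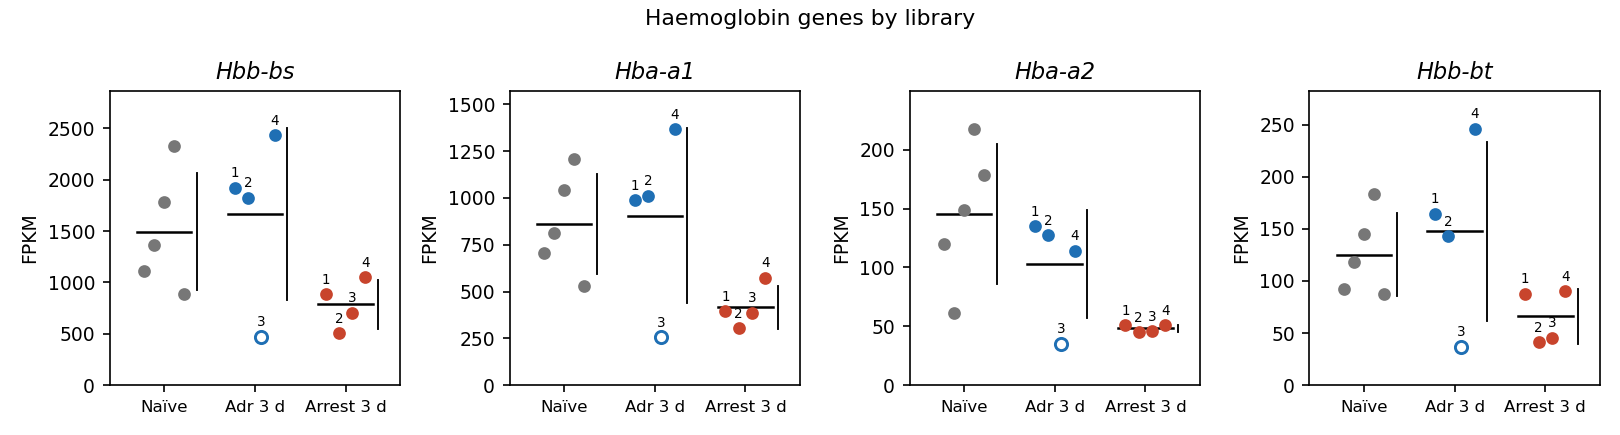
FPKM of Hbb-bs, Hba-a1, Hba-a2 and Hbb-bt in the 5 Naïve, 4 Adr 3 d and 4 Arrest 3 d libraries (points, with replicate numbers; the open circle is Adr replicate 3; horizontal line, mean; vertical line, ± SD). Adr replicates 1, 2 and 4 lie above all Arrest points in each panel, and Adr replicate 3 lies below all of them.

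Among the genes higher in Arrest was Neat1, the long noncoding RNA around which nuclear paraspeckles form. Neat1 (ENSMUSG00000092274, chromosome 19) measured 8.12, 9.15, 6.17 and 8.63 FPKM in Adr and 17.2, 16.01, 13.2 and 11.8 FPKM in Arrest. The groups did not overlap with or without Adr replicate 3, and the Naïve libraries, at 9.84 to 15.1 FPKM, lay above every Adr library. The difference was 0.78 ± 0.18 (adjusted p = 1.00) and, without Adr replicate 3, 0.68 ± 0.17 (adjusted p = 1.00), and it stayed between 0.60 and 0.87 under every setting tried. At 1 and 7 days Neat1 was also higher in Arrest, by 0.62 and 0.66, and at 0.5 days lower by 0.33. Malat1, another nuclear noncoding RNA, differed by 0.08, with groups that overlapped.

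Ldha, the muscle subunit of lactate dehydrogenase, measured 167, 185, 137 and 157 FPKM in Adr and 233, 217, 213 and 200 FPKM in Arrest, again without overlap, and the Naïve libraries spanned 169 to 182 FPKM. The difference was 0.42 ± 0.18 and, without Adr replicate 3, 0.34 ± 0.14 (adjusted p = 1.00 in both). Of 17 Glycolysis genes, all tested, 17 were higher in Arrest with all 8 libraries (median 0.35) and 12 without Adr replicate 3 (median 0.13). In the latter, 3 did not overlap (Ldha, the enolase Eno1 and the glucose transporter Slc2a1), against 2.46% of all genes. Leaving out Adr replicate 4 as well gave 8 higher and 9 lower, so the list as a whole did not keep a direction.

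Ribosomal protein genes were slightly higher in Arrest. Rps27 measured 235, 264, 273 and 344 FPKM in Adr and 369, 375, 354 and 408 FPKM in Arrest, a difference of 0.44 ± 0.21 with all 8 libraries and 0.44 ± 0.17 without Adr replicate 3. Of 24 Ribosomal proteins genes tested, 23 were higher with all 8 libraries (median 0.13) and 24 without Adr replicate 3 (median 0.21), and 9 of the 24 did not overlap in the latter against 2.46% of all genes. After quantile normalization of all 8 libraries 7 were higher and 17 lower (median -0.03). Rps27rt, a retrotransposed copy that lies inside Osbpl10 on the other strand, went the other way, with 413, 333, 407 and 400 FPKM in Adr and 305, 233, 117 and 181 FPKM in Arrest. Fragments of Rps27 and of its copy may have been assigned to either, so both values are uncertain.

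Further genes without overlap were found by the naming rule, which took the 10 largest differences in each direction among genes at an unadjusted p of 0.05 or less. Higher in Arrest with all 8 libraries, besides Neat1, were Rps15a-ps5, Car11, Ccl27a, Dusp27, Bbln, Bag2, Cyth2, Zfp697 and Wdr24, with differences of 0.60 to 0.84. The largest of these belonged to Rps15a-ps5, a processed pseudogene inside Lrrc8d that rests on 2 to 5 fragments per Adr library. It measured 0.384, 0.334, 0.211 and 0.507 FPKM in Adr and 1.2, 1.54, 0.654 and 2.74 FPKM in Arrest. The Arrest libraries were enough by themselves for it to pass the filter, so its separation is no support. Wdr24, a subunit of the GATOR2 complex that relays amino acid supply to mTORC1, measured 3.04, 3.29, 3.05 and 4.08 FPKM in Adr and 5.45, 5.47, 6.29 and 5.17 FPKM in Arrest (0.60 ± 0.15 and, without Adr replicate 3, 0.57 ± 0.16). Bag2, a co-chaperone of Hsp70, measured 12.6, 9.94, 4.52 and 9.16 FPKM in Adr and 14.7, 13.4, 13.7 and 13.8 FPKM in Arrest (0.64 ± 0.26 and 0.38 ± 0.15). Both were higher in every Arrest library, and neither passed the adjusted test (adjusted p = 1.00). The lowest adjusted p with all 8 libraries, 0.46, belonged to Gm43355, a pseudogene outside the rule and chosen after its values were seen. It measured 0, 0, 0.359 and 0.461 FPKM in Adr and 2.53, 3.10, 1.67 and 2.40 FPKM in Arrest. Every Adr value lay below 0.5 FPKM, so Gm43355 passed the filter through the Arrest libraries alone, and its separation is no support.

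Lower in Arrest, besides the genes above, were Mir7-1, Igkc, Cdc42ep5, Trmt112-ps2, Chst7 and Bmper. Chst7, a sulfotransferase of chondroitin chains, measured 3.83, 5.26, 7.96 and 4.93 FPKM in Adr and 1.25, 3.19, 1.84 and 3.81 FPKM in Arrest (-0.91 ± 0.28 and, without Adr replicate 3, -0.74 ± 0.27). Bmper, a secreted regulator of bone morphogenetic protein signals, measured 1.86, 1.52, 3.02 and 3.13 FPKM in Adr and 1.35, 0.416, 0.226 and 1.5 FPKM in Arrest (-0.89 ± 0.28 and -0.79 ± 0.31). In both genes the highest Arrest and the lowest Adr library were almost level.

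Igkc, the constant region of the antibody kappa chain and a mark of plasma cells, measured 3.12, 5.05, 9.03 and 1.72 FPKM in Adr and 0, 0, 1.69 and 1.5 FPKM in Arrest, where a count of 0 allows up to 0.38 FPKM. Mir7-1, a microRNA hairpin inside Hnrnpk on the same strand, measured 8.39, 6.07, 6.14 and 4.43 FPKM in Adr and 0, 0, 0 and 4.27 FPKM in Arrest. These values rest on 10 to 16 fragments per Adr library and on 15 in Arrest replicate 4, and a count of 0 allows 1.79 to 1.87 FPKM. Without Arrest replicate 4 Mir7-1 passed the adjusted test, at -2.83 (adjusted p = 0.0087), and with it the difference was -2.23 ± 0.51 (adjusted p = 1.00). Leaving that library out removed the only Arrest value above 0. The remaining Arrest values had no spread and Mir7-1 met the filter through Adr alone, so that pass is no support. Fragments of the host gene cannot be told apart from those of the hairpin.

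Matrix and repair genes had their highest values in Adr replicate 3, and their differences grew when it was left out. Spp1, which encodes osteopontin, a matricellular protein made by macrophages after injury, measured 1.24, 0.756, 594 and 0.242 FPKM in Adr and 12.3, 3.5, 3.12 and 66.2 FPKM in Arrest. Adr replicate 3 was the highest of all 8, and the other 3 Adr libraries lay below every Arrest library and within the Naïve range, which ended at 1.59 FPKM. The difference was 0.63 ± 1.86 with all 8 libraries and 2.74 ± 0.86 (adjusted p = 1.00) without Adr replicate 3. The Spp1 difference was 0.82 at 0.5 days, -1.69 at 1 day and -0.41 at 7 days.

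Postn, the matricellular protein periostin of activated fibroblasts, measured 3.40, 6.48, 120 and 1.45 FPKM in Adr and 51.6, 5.11, 4.10 and 90.6 FPKM in Arrest. Cthrc1, a secreted protein of injury fibroblasts, measured 0, 0, 64.6 and 0.125 FPKM in Adr and 0, 1.09, 2.46 and 34.1 FPKM in Arrest. High values were thus found in Arrest replicates 1 and 4 for Postn, in replicate 4 for Cthrc1, and in Adr replicate 3 for both, while Arrest replicates 2 and 3 lay near the Naïve range. Timp1, an inhibitor of matrix metalloproteases, had the same order, with 57.2 and 61.7 FPKM in Arrest replicates 1 and 4, 6.34 and 4.13 FPKM in replicates 2 and 3, and 128 FPKM in Adr replicate 3. Lgals3, the macrophage lectin galectin-3, measured 1.99, 3.07, 164 and 5.94 FPKM in Adr and 16.3, 5.41, 5.36 and 29.5 FPKM in Arrest (1.47 ± 0.56 without Adr replicate 3, adjusted p = 1.00).

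Of 17 tested Matricellular and myofibroblast genes (18 listed), 11 were higher in Arrest with all 8 libraries (median 0.16) and 16 without Adr replicate 3 (median 0.80), and in the latter Spp1 alone had an unadjusted p of 0.05 or less. With all 8 libraries the median changed sign on leaving out Adr replicate 1, 2 or 4 or Arrest replicate 1 or 4, and lay between -0.22 and 0.80. The median without Adr replicate 3 stayed above 0 with each further library removed and was 0.42 without Arrest replicate 4. Col1a1, the main fibrillar collagen chain, measured 16.6, 19.6, 394 and 12.8 FPKM in Adr and 27.2, 14.9, 23.3 and 101 FPKM in Arrest. Of 15 tested collagens, 2 were higher with all 8 libraries and 13 without Adr replicate 3, none at an unadjusted p of 0.05 or less in either.

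**Figure D5:**
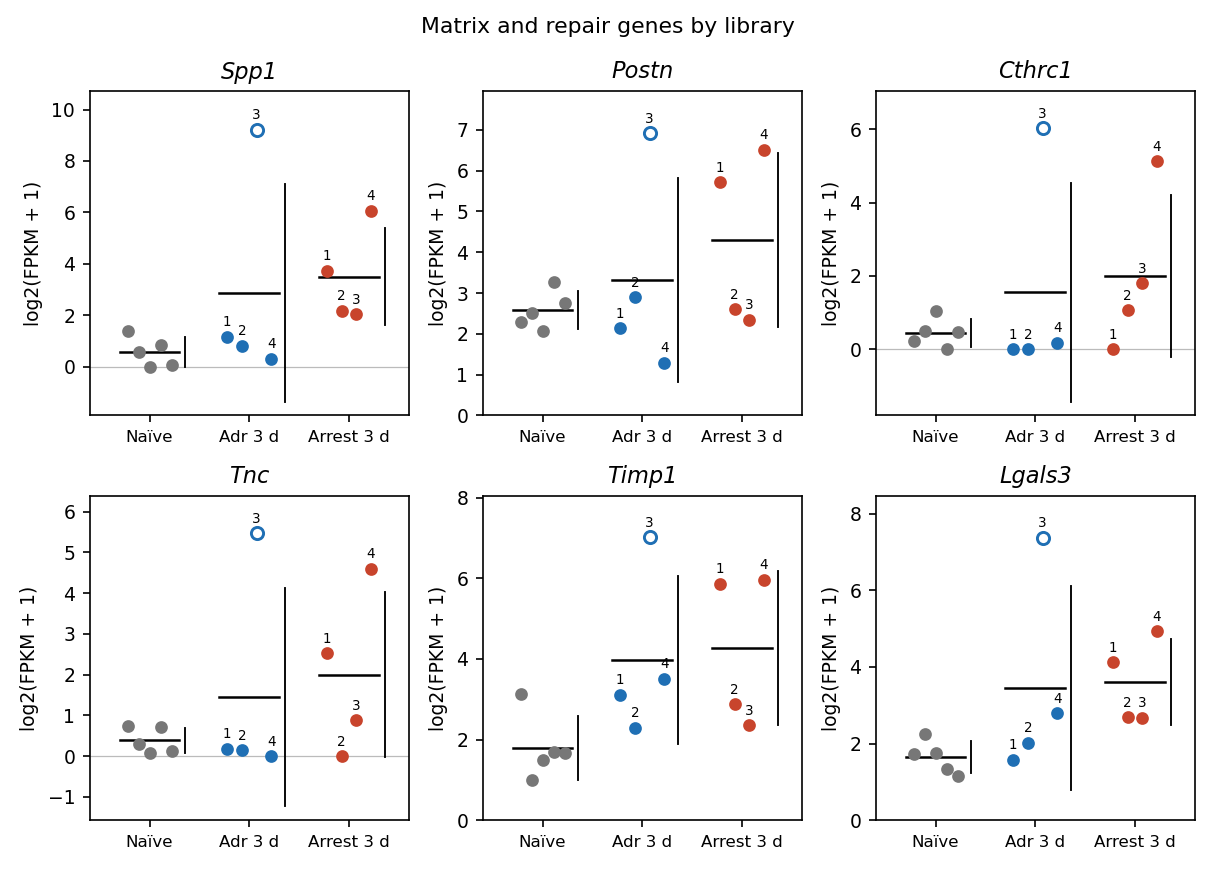
log2(FPKM + 1) of 6 matrix and repair genes in the 5 Naïve, 4 Adr 3 d and 4 Arrest 3 d libraries (points, with replicate numbers; the open circle is Adr replicate 3; horizontal line, mean; vertical line, ± SD). Adr replicate 3 is the highest point in each panel, and Arrest replicates 1 and 4 lie above replicates 2 and 3 in all panels but Cthrc1, where replicate 1 is at 0.

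Among immune cell genes, the macrophage and inflammatory monocyte lists had their highest means in Adr replicate 3. Chil3, a chitinase-like protein of alternatively activated and newly recruited macrophages, was listed at 0, 0, 14.5 and 0.806 FPKM in Adr and at 20.5, 2.05, 1.77 and 5.43 FPKM in Arrest, and at 0 in all Naïve libraries. Adr replicates 1, 2 and 4 lay below every Arrest library, and a count of 0 allows up to 0.14 FPKM. The Arrest libraries were enough by themselves for Chil3 to pass the filter, so this separation is no support. The difference was 1.35 ± 0.94 with all 8 libraries and 2.26 ± 0.65 (adjusted p = 1.00) without Adr replicate 3. Of 20 tested Macrophages genes, 8 were higher with all 8 libraries (median -0.05) and 17 without Adr replicate 3 (median 0.29). For 8 tested Inflammatory monocytes genes these numbers were 2 (median -0.09) and 8 (median 0.55). For 6 tested Neutrophils genes they were 2 (median -0.41) and 4 (median 0.08). The Neutrophils list had its highest mean log2(FPKM + 1) in Arrest replicate 1 (2.78), against 2.25 in Adr replicate 4 and 2.14 in Adr replicate 3.

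The direction of most members also changed in other immune and growth lists. Of 20 Interferon response genes 7 were higher with all 8 libraries and 18 without Adr replicate 3, of 19 tested chemokine and receptor genes 3 and 13, and of 18 tested proliferation genes 2 and 16. No member of these lists passed the adjusted test in either comparison. Adgre1, which encodes the macrophage marker F4/80, measured 9.14, 7.83, 44.2 and 8.29 FPKM in Adr and 5.64, 9.03, 9.79 and 20.1 FPKM in Arrest. Cxcl1, a neutrophil-attracting chemokine, was lower in Arrest in both comparisons, with 2.09, 0.909, 2.61 and 1.08 FPKM in Adr and 0.539, 0.536, 0 and 0.771 FPKM in Arrest. Its groups did not overlap in either comparison (-0.85 ± 0.27 and, without Adr replicate 3, -0.69 ± 0.26).

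In the comparison without Adr replicate 3 the naming rule also gave Tubb3, Erdr1, Tubb2b, Sfn, Slfn1, Adora2b, Gla and Cd300c2 as higher in Arrest. Tubb3, a beta-tubulin best known from neurons, measured 0.525, 0.281, 14.4 and 0.598 FPKM in Adr and 3.93, 2.19, 4.85 and 3.97 FPKM in Arrest, against at most 1.1 FPKM in Naïve. The difference was 0.81 ± 0.71 with all 8 libraries and 1.66 ± 0.23 (adjusted p = 0.21) without Adr replicate 3. The latter passed (adjusted p = 0.043) when the libraries of the other groups were added to the fit and the spread was pooled over all of them. Tubb3 lies inside the read-through gene Gm20388, whose fragments cannot be told apart from its own. Adora2b, a receptor for extracellular adenosine, measured 0, 0, 3.21 and 0.540 FPKM in Adr and 1.28, 0.981, 1.53 and 2.15 FPKM in Arrest. For all 8 of these genes Adr replicate 3 lay above at least 1 Arrest library, so the groups overlapped with it and not without it. In Adr replicates 1, 2 and 4, Sfn measured 0.374, 0.325 and 0.346 FPKM and Slfn1 0, 0 and 0.471 FPKM. A count of 0 allows up to 0.12 FPKM for Slfn1 and Adora2b. The Arrest libraries were enough by themselves for Sfn, Slfn1 and Adora2b to pass the filter, so their separation is no support.

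Adr replicate 3 also stood apart from the other Adr libraries in single genes. Myl7, the atrial myosin light chain, measured 225 FPKM there, against 0.778 to 9.12 FPKM in the other Adr libraries and 0.909 to 6.54 FPKM in Arrest. Nppa, the atrial natriuretic peptide, measured 169 FPKM there, against 15.9 to 31.4 FPKM in the other Adr libraries and 10.7 to 130 FPKM in Arrest. Strit1, a small activator of the SERCA pump, was listed at 0 there, against 5.90 to 8.37 FPKM in the other Adr libraries. The 10 listed Atrial genes, 7 of them tested, summed to 568 FPKM in this library and to 68.8 to 191 FPKM in the other 7. The part of these levels in the results above was not tested.

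Heart muscle genes were low in Adr replicate 3. Tnnt2, cardiac troponin T, measured 649, 588, 187 and 564 FPKM in Adr and 826, 943, 701 and 537 FPKM in Arrest. Atp2a2, the calcium pump SERCA2, measured 1507, 1535, 427 and 1552 FPKM in Adr and 1053, 1598, 1425 and 1053 FPKM in Arrest. Without Adr replicate 3 the differences were 0.30 ± 0.21 and -0.28 ± 0.20, and the groups of both genes overlapped. All 16 Cardiomyocyte sarcomere genes were higher in Arrest with all 8 libraries (median 0.45), and 11 without Adr replicate 3 (median 0.02).

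The medians of the energy gene lists changed sign when Adr replicate 3 was left out. Of 36 Nuclear complex I subunits 36 were higher with all 8 libraries (median 0.29) and 6 without Adr replicate 3 (median -0.10). For 14 Citric acid cycle genes the numbers were 14 (median 0.27) and 1 (median -0.14). For 16 tested genes of Fatty acid uptake and oxidation they were 12 (median 0.15) and 3 (median -0.22). Acsl1, which activates long-chain fatty acids, measured 66.2, 60.3, 15.6 and 43.1 FPKM in Adr and 34.5, 51.4, 43.6 and 34.4 FPKM in Arrest (-0.45 ± 0.21 without Adr replicate 3, adjusted p = 1.00). No gene of these lists had an unadjusted p of 0.05 or less in either comparison.

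Wall stress genes kept a direction but were uneven between libraries. Of 11 tested members of Natriuretic and wall stress genes (12 listed), 10 were higher in Arrest with all 8 libraries (median 0.47) and 11 without Adr replicate 3 (median 0.73). Nppb, the B-type natriuretic peptide, measured 563, 263, 227 and 45.2 FPKM in Adr and 181, 253, 402 and 526 FPKM in Arrest. Myh7, the beta myosin heavy chain of the stressed adult mouse heart, measured 5.47, 6.73, 2.83 and 5.59 FPKM in Adr and 22.9, 14.7, 6.28 and 6.76 FPKM in Arrest (1.02 ± 0.40 and, without Adr replicate 3, 0.80 ± 0.39, adjusted p = 1.00 in both). Adr replicate 4 had the lowest Nppb value of all 8, and without it and Adr replicate 3 the list stood at 7 higher and 4 lower with a median of 0.18.

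Among channels, Kcnj3 did not overlap between the groups without Adr replicate 3. Kcnj3, a subunit of the acetylcholine-activated potassium channel, measured 10.6, 12.0, 3.88 and 13.1 FPKM in Adr and 5.98, 10.04, 9.01 and 6.08 FPKM in Arrest (-0.58 ± 0.20, adjusted p = 1.00). Adrb1, the main beta receptor of heart muscle, differed by -0.07 with all 8 libraries and -0.38 without Adr replicate 3, with overlap in both. Both lists changed sign of their median with Adr replicate 3, from 0.08 to -0.05 for Adrenergic receptors and cAMP signalling and from 0.21 to -0.07 for Sodium and potassium channels.

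Single Arrest and Adr libraries carried the stress hormone and acute phase genes. Fkbp5, a glucocorticoid receptor target, measured 2.64, 1.78, 4.68 and 10.01 FPKM in Adr and 25.8, 1.98, 2.39 and 2.36 FPKM in Arrest. Mt1, a metallothionein, measured 107, 109, 87.5 and 423 FPKM in Adr and 869, 184, 132 and 158 FPKM in Arrest. Serpina3n, an acute phase protease inhibitor, measured 5.49, 1.30, 13.8 and 214 FPKM in Adr and 114, 13.1, 4.89 and 25.2 FPKM in Arrest. Arrest replicate 1 and Adr replicate 4 were the 2 highest libraries in all 3 genes, so high values stood in both groups. H2-Ab1, an MHC class II chain of antigen-presenting cells, was lowest in the same 2 libraries, at 2.28 FPKM in Arrest replicate 1 and 11.2 FPKM in Adr replicate 4, against 21.9 to 52.7 FPKM in the other 6. All 6 tested MHC class II genes were lower in Arrest with all 8 libraries (median -0.77), and 5 of the 6 without Adr replicate 3 (median -0.56). Leaving out Arrest replicate 1 gave 4 of the 6 lower with the other 7 libraries (median -0.15), and 1 of the 6 lower when Adr replicate 3 was left out too (median 0.11).

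Of the lists of other cell types, that of Schwann and nerve genes (7 tested) held members that did not overlap, all lower in Arrest. They numbered 1 with all 8 libraries and 2 without Adr replicate 3. Of all genes, 1.01% and 2.4% were lower without overlap in these comparisons. Mbp, a myelin protein gene, measured 1.18, 1.32, 2.07 and 1.26 FPKM in Adr and 0.549, 0.989, 0.273 and 1.01 FPKM in Arrest (-0.54 ± 0.21 and, without Adr replicate 3, -0.43 ± 0.21, adjusted p = 1.00 in both). Tcf21, a transcription factor of resident cardiac fibroblasts, measured 4.76, 7.81, 7.90 and 8.16 FPKM in Adr and 3.58, 2.94, 4.30 and 6.27 FPKM in Arrest (-0.64 ± 0.24 and -0.59 ± 0.25, adjusted p = 1.00 in both), and Arrest replicate 4 overlapped with Adr replicate 1. Of 13 Endothelium genes 7 were higher with all 8 libraries and 4 without Adr replicate 3. Among 10 fibroblast genes 5 were higher in both comparisons, and of 10 tested smooth muscle and pericyte genes 8 and 6. Natural killer, T, B and lung epithelium lists had 1 or 2 members each above the filter, so little of those cells was measured. Lists of heat shock, p53, autophagy and clock genes held no member with an unadjusted p of 0.05 or less in either comparison.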

How the data were processed

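RNA from about 50 mg of left ventricle (RNA integrity number of at least 6) was sequenced as paired reads of 150 bases. Per the study's methods, the authors checked reads with FastQC, aligned them with HISAT2 and tested differences with DESeq2; the genome build and the counting tool are not given in the sources used here. The deposited table holds FPKM for 56748 genes in 37 libraries, normalized by the authors to gene length and mapped fragments, with no counts. Whole fragments were rebuilt from FPKM and gene length for library totals and floors only, so count tests were not used. No per-sample column was left unassigned (0 unused).

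Genes with at least 0.5 FPKM in 4 or more of the 8 libraries were tested on log2(FPKM + 1) with limma 3.58.1 in R 4.3.3 (moderated statistics with a mean-variance trend, no covariate, Benjamini-Hochberg adjustment over all genes tested, threshold 0.05), and again without Adr replicate 3 using the same genes. The change of the difference from 1 to 3 days was an interaction term. Scripts were tested on simulated data. Library measures were compared by exact permutation tests. Plots were made with matplotlib 3.10.9 in Python 3.11.15.

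The members and the 55 gene lists were chosen with earlier results of these data known. Named were genes that passed the adjusted test (at most 10 per direction), the 10 largest differences per direction in each comparison among genes with an unadjusted p of 0.05 or less, groups that did not overlap and a mean of at least 1 FPKM, the first 2 tested members and the member with the lowest p of each list, and the 8 genes furthest above and below the other Adr libraries in Adr replicate 3. Jun, Ier2, Manf, Pdia4, Eno1, Slc2a1, Alas2 and other genes outside this rule, and the promoter element, were chosen after their values were seen. Alternatives were the pseudocount, filters, scalings, weights, covariates and single libraries left out. Promoters came from RefSeq (GRCm38.p6). Because the build of the deposited table is not named, genes are placed by chromosome only. Many genes named for their lists are given only through the counts of those lists, and a few are not reported here.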

Additional observations from a re-analysis of the deposited data

Results flagged for a closer look

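Single libraries far from the rest of their group were looked for by comparing the gap of the highest or lowest library with the range of the 4 libraries of a group. Such a gap was found in 2 of 10 library measures (20%), in 13 of 96 group means of gene lists (13.5%) and in 30 of 206 groups of named genes (14.6%). Chance gives about 1 in 20 for groups not chosen by their values. Some named genes were chosen because they separated once Adr replicate 3 was left out, so that rate is no reference for them.

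Most of them were Adr replicate 3. It had the lowest share of fragments from the mitochondrial genome, 9.36%, and the lowest list means, in log2(FPKM + 1), of channels (2.22), nuclear complex I subunits (5.69), complexes II to V (7.07), the mitochondrial genome (9.19) and clock genes (2.0). It had the highest list means of inflammatory monocytes (4.14), chemokines (4.31) and proliferation (3.35).

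Genes at their lowest in Adr replicate 3 were Hba-a2 (35.2 FPKM), Tnnt2 (187 FPKM), Atp2a2 (427 FPKM), Ryr2 (10.1 FPKM), Ndufs1 (13.3 FPKM) and Sdha (69.0 FPKM). Genes at their highest there were Spp1 (594 FPKM), Col1a1 (394 FPKM), Cthrc1 (64.6 FPKM), Adgre1 (44.2 FPKM), Tnc (43.4 FPKM), Csf1r (33.7 FPKM), Cd300c2 (25.5 FPKM), Tubb3 (14.4 FPKM), Mki67 (11.6 FPKM), Ccr2 (11.3 FPKM), Gla (10.8 FPKM), Top2a (10.1 FPKM), Slfn1 (9.27 FPKM), Relb (4.98 FPKM) and Sfn (1.41 FPKM).

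In the Arrest group, replicate 1 had the lowest mean of MHC class II genes (2.03), with H2-Aa at 4.04 FPKM and H2-Ab1 at 2.28 FPKM, and the highest mean of glucocorticoid targets (4.90), with Fkbp5 at 25.8 FPKM. Adr replicate 4 had the highest mean of glucocorticoid targets in its group (4.35), with Lcn2 at 8.25 FPKM and Mt1 at 423 FPKM. Arrest replicate 3 had the lowest mean of NRF2 genes (3.57). Arrest replicate 4 had the most fragments, 30.2 M, and the 1 value of Mir7-1 above 0 in its group, 4.27 FPKM. Adr replicate 1 had the lowest mean of dendritic cell genes (1.04) and the lowest Tcf21 value (4.76 FPKM), and Adr replicate 2 the lowest Rps27rt (333 FPKM) and Nr4a1 (14.1 FPKM) values.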

How the results depend on the processing

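With all 8 libraries, 0 genes passed the adjusted test under every alternative pseudocount, filter, scaling, weight, covariate or fit, with 232 to 738 genes at an unadjusted p of 0.05 or less, and 0 or 1 passed with single libraries left out (Hba-a2 without Adr replicate 3, Mir7-1 without Arrest replicate 4). Without Adr replicate 3, the count was 0 in place of 1 with no filter, with a mean of at least 1 FPKM, with scaling by fragments outside the mitochondrial genome, with the gene length trend removed, with no mean-variance trend and with sex as a covariate, where the adjusted p of the lowest gene ran from 0.0535 to 0.206. It was 1 with the other pseudocount, quantile normalization and sample weights (Hba-a2) and with all other libraries in the fit (Tubb3, while Hba-a2 had an adjusted p of 0.641), and 0 or 1 with a further library left out, where Mir7-1 passed without Arrest replicate 4. Leaving out single libraries gave 0 or 1 gene for the change from 1 to 3 days (Fam151b without Arrest 3 d replicate 4). The cause of these differences was not tested.

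The replicate numbers did not pair the libraries (correlations of deviations of -0.17, 0.29, -0.17 and -0.32 for numbers 1 to 4). With the replicate number as a block, 0 genes passed in either comparison, 244 with all 8 libraries and 444 without Adr replicate 3 had an unadjusted p of 0.05 or less, and the call of Hba-a2 was lost. No value in the tables reversed its sign while passing the test. With 3 or 4 libraries per group and FPKM alone, a difference smaller than the usual spread was not detectable, and low genes such as Mir7-1 rest on few fragments.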

Other observations

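Gapdh, often used as a reference gene, was listed at 43.9 FPKM (2704 fragments) in Arrest 3 d replicate 2 and at 0.982 to 2.44 FPKM in the other 7 libraries. Scgb1a1, a secretoglobin of airway club cells, was listed at 42.8 FPKM (304 fragments) in Arrest 3 d replicate 2 and at 6.79 FPKM in Arrest 3 d replicate 1, and at 0 in the other 6. Gapdh passed the filter, with overlapping groups, and Scgb1a1 did not, and both were chosen after their values were seen.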
